A study of Mus musculus with 48 samples.

Results

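Glucose transport and gluconeogenesis in the mouse kidney were followed through 8 genes, chosen by their role: the sodium-glucose cotransporters Slc5a2 and Slc5a1, the facilitative glucose transporters Slc2a2 and Slc2a1, and the gluconeogenic enzymes Pcx, Pck1, Fbp1 and G6pc. They were found by gene symbol, and all 8 were among the 12423 genes listed in both assays and among the 11863 genes tested. The kidneys came from 48 male C57BL/6JRj mice aged 11 to 12 weeks, wild-type animals with food and water freely available that had been held for 2 weeks in 12 h of light and 12 h of darkness. Lysates of 2 mice were pooled, and 2 such pools were made every 2 h through the day. This gave 12 timepoints that began at ZT00 (lights-on), passed ZT12 (lights-off) and ended at ZT22. The authors collected over 2 daily cycles, and the sample titles do not say from which cycle a pool came. Every pool gave 1 RNA-seq library, which measures transcript abundance, and 1 RPF-seq library, which measures the mRNA fragments shielded by translating ribosomes (footprints). The groups compared were therefore the 12 times of day, with no treatment and no genetic change in any of them.

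The kidney filters glucose from the blood and takes nearly all of it back in the proximal tubule. Slc5a2 (SGLT2) and Slc5a1 (SGLT1) carry glucose with sodium across the apical membrane in the early and late parts of that tubule, and Slc2a2 (GLUT2) and Slc2a1 (GLUT1) let it leave across the basolateral membrane. The same tubule cells also make glucose from lactate, glutamine and glycerol: pyruvate carboxylase (Pcx) forms oxaloacetate, cytosolic phosphoenolpyruvate carboxykinase (Pck1) turns it into phosphoenolpyruvate, fructose-1,6-bisphosphatase (Fbp1) reverses a committed step of glycolysis, and glucose-6-phosphatase (G6pc) releases free glucose.

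Values were RPKM, reads scaled to the length of the coding sequence and to library size, which allow levels to be compared between genes as well as between libraries. Relative to the median library, depth ran from 0.598 to 2.04 in RNA-seq and from 0.701 to 1.58 in RPF-seq. The RPF-seq library of ZT04 replicate 2 listed 162 genes at 0, against at most 23 in any other RPF-seq library. None of the 8 genes was thinly covered. The smallest number of RNA-seq reads behind a value was 478, for Slc2a1, and the largest was 100634, for Pck1; in RPF-seq the fewest were 1493, again for Slc2a1. The 12 proximal tubule markers summed to between 11969 and 16294 RPKM in RNA-seq. The cosine fitted to that sum had a peak-to-trough fold of 1.03. By the limma test used for all genes, however, 8 of the 12 had a 24-h component and 1 was rhythmic, beside 48.6% and 10.2% of all genes. Because these are whole kidneys, fewer cells of a type and less RNA per cell cannot be told apart.

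On GRCm38 the genes lie at chr7:128265657-128272430 (Slc5a2), chr5:33104219-33162870 (Slc5a1), chr3:28697903-28731359 (Slc2a2), chr4:119108711-119137983 (Slc2a1), chr19:4510472-4621752 (Pcx), chr2:173153048-173159273 (Pck1), chr13:62864753-62888282 (Fbp1) and chr11:101367561-101377903 (G6pc). Fbp1 is on the minus strand and the other 7 are on the plus strand. No coding sequence of another gene overlaps theirs in GENCODE vM21. An exon of BC017158 on the opposite strand overlaps part of the coding sequence of Slc5a2, an exon of the antisense transcript Gm12868 overlaps that of Slc2a1, and the sources used here do not give whether reads were counted by strand.

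RefSeq (GRCm38.p6) gave a promoter of 300 bases, 250 before and 50 after the start site, for 7 of the 8 genes, the exception being Slc5a2. Stretches from those of Pck1 and G6pc are shown because these were the genes with the largest daily changes. The first is Pck1, chr2:173152823-173153047, plus strand, positions -250 to -26 from the start site, with a variant cAMP response element in capitals; the others are G6pc, chr11:101367543-101367572 and chr11:101367650-101367679, plus strand, with an element of the D-box and cAMP response type and the core of a REV-ERB/ROR element, read on the minus strand, in capitals.
Pck1: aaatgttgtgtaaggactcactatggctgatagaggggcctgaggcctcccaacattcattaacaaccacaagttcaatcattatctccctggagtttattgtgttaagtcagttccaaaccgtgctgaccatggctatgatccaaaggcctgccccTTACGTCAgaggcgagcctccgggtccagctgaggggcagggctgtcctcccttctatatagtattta
G6pc, positions -173 to -144: gttttgctattTTACGTAAatcaccctgaa
G6pc, positions -66 to -37: tcagggctggatTGACCTAcagactgaatc

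Motifs of clock factors, cAMP signalling, liver and kidney transcription factors and the core promoter were searched on both strands, except TATAAA, which was read along the gene only. TTACGTCA began at -93 in Pck1 and occurred in 0.499% of 32851 RefSeq promoters of this length. In G6pc, TTACGTAA began at -162 (0.119% of promoters), TGACCTA, the reverse of TAGGTCA, at -54 (2.61%) and TATAAA at -29 (8.32%), and none of these matches overlapped another. The E-box CACGTG, present in 7.15% of promoters, was found in Slc5a1 at -143 and in Pcx at -248, and Slc2a1 had a TATAAA beginning at 29, after the start site. Of the other motifs, TGACGTCA, TTATGTAA, CAAAGTCCA (HNF4), TTGCGCAA (C/EBP) and the HNF1 site had no match among the 8 promoter entries of these 7 genes. These are matches of letters only.

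Of the 8 genes, Pck1 and G6pc were rhythmic in both assays and no other member was. A gene was called rhythmic when a 24-h cosine fitted with limma to log2(RPKM + 0.1) had a Benjamini-Hochberg adjusted p, over all genes tested, under 0.05 and the cosine rose from trough to peak by 1.5-fold or more; the first condition alone is called a 24-h component here. In RNA-seq 2 of 8 members were rhythmic, beside 10.2% of all genes, and 5 of 8 had a 24-h component, beside 48.6% of all genes. In RPF-seq 2 of 8 were rhythmic, beside 7.58% of all genes, and 6 of 8 had a 24-h component, beside 30.9%. The members' median fold was 1.17 in RNA-seq and 1.24 in RPF-seq, and the medians over all genes were 1.20 and 1.18. No member had a 12-h component by limma in either assay after adjustment, beside 0.598% and 0.700% of all genes. At an unadjusted p under 0.05 there was 1 member in RNA-seq and 0 in RPF-seq. The share of all genes at that threshold was not counted. Fits to replicate 1 or replicate 2 alone, with 12 libraries each, called as many members or fewer, and the counts are given with the other settings in the closing section.

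**Figure D1:**
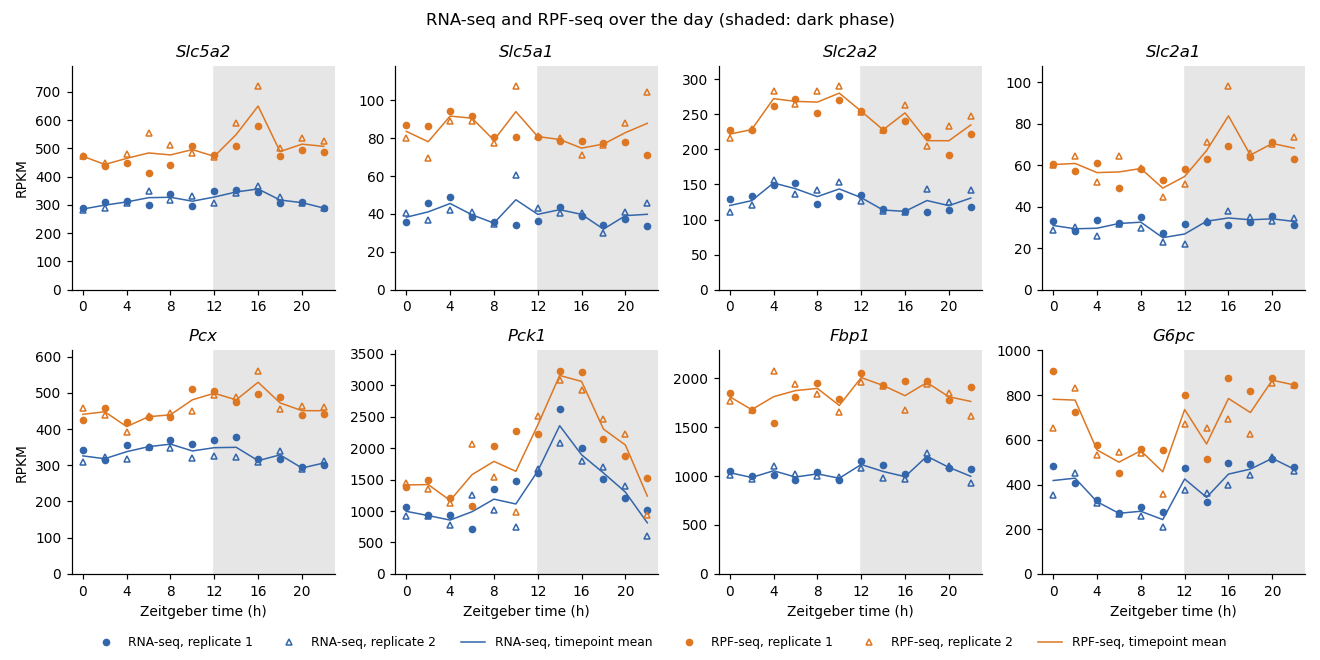
RPKM (vertical axes, each from 0) against Zeitgeber time in hours for the 8 genes, in RNA-seq (blue) and RPF-seq (orange); circles and triangles are the 2 replicate pools, lines join timepoint means and shading marks the dark phase. Pck1 rose to RNA-seq means of 2357 RPKM at ZT14, G6pc had its lowest RNA-seq mean, 243 RPKM, at ZT10, and Fbp1 stayed between timepoint means of 978 and 1202 RPKM.

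Pck1 had the largest daily change of the 8 genes. Its RNA-seq values ran from 602 RPKM at ZT22 replicate 2 through a median of 1235 to 2629 RPKM at ZT14 replicate 1. The 4 pools of ZT14 and ZT16 held 1788 RPKM or more and all lay above the other 20 pools, which reached 1695 RPKM at most. Footprints followed the same course, from 944 RPKM at ZT22 replicate 2 through a median of 1955 to 3233 RPKM at ZT14 replicate 1, and the pools of ZT14 and ZT16 again stood above all others (2917 against at most 2511 RPKM). The fitted fold was 2.30 in RNA-seq (log2 1.20 ± 0.18, SE; limma, adjusted p = 3.71e-05) with a peak at 14.7 ± 0.57 h (SE), early in the dark phase. In RPF-seq it was 2.27 (log2 1.18 ± 0.19; limma, adjusted p = 0.000164) with a peak at 14.9 ± 0.61 h. Both amplitudes were above those of 98.8% or more of all genes tested. The blocks of timepoints compared here and below were chosen after the values were seen, so their separation is only a description. How many of all genes separate in this way was not counted.

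Pck1 also differed between pools of the same timepoint more than most genes. The SD between replicates was 0.34 on the log2 scale in RNA-seq, above that of 93.4% of genes, where the median gene had 0.14. At ZT10 replicate 1 had 1483 RPKM and replicate 2 had 742 RPKM in RNA-seq, and 2278 and 986 RPKM in RPF-seq. At ZT06 the order was the other way, with 721 and 1258 RPKM in RNA-seq and 1086 and 2072 RPKM in RPF-seq. The pool that was higher in RNA-seq was also higher in RPF-seq at 11 of 12 timepoints, and the log2 differences between replicates in the 2 assays had a Pearson r of 0.968 across those 12 timepoints, which share their lysates. Leaving out any single pool kept the RNA-seq fold between 2.15 and 2.41. In the 12 libraries of replicate 2 alone the folds were 2.2 in RNA-seq and 2.17 in RPF-seq, and neither passed the test (limma, adjusted p = 0.0517 and 0.132).

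G6pc was lowest in the middle and late light phase and highest in the late dark phase. In RNA-seq it ran from 210 RPKM at ZT10 replicate 2 through a median of 386 to 521 RPKM at ZT20 replicate 2, and in RPF-seq from 359 RPKM at ZT10 replicate 2 through 663 to 910 RPKM at ZT00 replicate 1. The 8 pools of ZT04 to ZT10 held 210 to 330 RPKM in RNA-seq, and of the other 16 pools only ZT14 replicate 1, at 322 RPKM, fell below their highest value. The same pool was the only one to do so in RPF-seq. The fitted fold was 1.83 in RNA-seq (log2 0.87 ± 0.11; limma, adjusted p = 5.6e-06), peaking at 20.0 ± 0.50 h, and 1.66 in RPF-seq (log2 0.73 ± 0.13; limma, adjusted p = 0.000516), peaking at 20.5 ± 0.68 h. Its RNA-seq peak thus came about 5 h after that of Pck1, and replicates 1 and 2 fitted alone peaked at 19.7 and 20.2 h. In replicate 2 alone the RPF-seq fold was 1.64 and did not pass the test (limma, adjusted p = 0.0904).

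The 2 rhythmic enzymes were set against each other within each library, since their ratio does not depend on the scaling of the library. The ratio of Pck1 to G6pc in RNA-seq ran from 1.31 to 8.17 over the 24 libraries. Its geometric means were lowest at ZT22 (1.68) and highest at ZT14 (6.84). A cosine fitted to the log2 ratio had a fold of 2.54 and a peak at 12.1 h (permutation test over the 24 libraries, two-sided, adjusted p = 5.33e-05, with the unadjusted p at the smallest value that 100000 resamples can give). In RPF-seq the fold of the ratio was 2.51 with a peak at 12.6 h (permutation test, adjusted p = 6.4e-05). The p-values of ratios were adjusted over 16 tests, 8 pairs in each assay, of which 14 passed. The pairs share genes, Pck1 among them, so these tests are not independent. In replicate 2 alone none of the 16 passed (for Pck1 to G6pc, permutation test, adjusted p = 0.0548 for RNA and 0.0578 for footprints), and in replicate 1 alone 13 did.

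Marker genes of other cell types were summed over the same RNA-seq libraries. The 2 red blood cell markers found came to 32.0 to 215 RPKM, and the cosine fitted to their sum had a fold of 1.97 and a peak at 14.7 h, but neither gene had a 24-h component in the limma test. The 5 principal cell markers of the collecting duct summed to 179 to 321 RPKM with a fold of 1.47 and a peak at 14.1 h. Of these 5, 4 had a 24-h component, beside 48.6% of all genes. The 8 hepatocyte markers were of interest because Pck1, G6pc and Slc2a2 are also liver genes. They summed to 143 to 489 RPKM with a fold of 1.20 and a peak at 20.6 h. Of the 7 that were tested, 5 were rhythmic in RNA-seq and 3 in RPF-seq, beside 10.2% and 7.58% of all genes. Ttr held most of that sum (107 to 437 RPKM), Alb reached 24.4 RPKM in RNA-seq and 130 RPKM in RPF-seq, and Cps1, an abundant liver transcript, reached 0.720 and 4.55 RPKM. Sums of the remaining groups peaked at 16.9 h (thick ascending limb, fold 1.23), 13.8 h (distal convoluted tubule, 1.12) and 21.2 h (leukocytes, 1.24). Those of intercalated cells (0.0656 h, 1.14), endothelium (0.189 h, 1.11), podocytes (3.99 h, 1.25) and adipocytes (4.72 h, 3.42) peaked in the first part of the light phase. The adipocyte sum was at most 9.03 RPKM. The part of all these cells in the course of Pck1 and G6pc was not tested.

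No daily rhythm was called for Fbp1. RNA-seq values ran from 927 RPKM at ZT22 replicate 2 through a median of 1022 to 1235 RPKM at ZT18 replicate 2, and the SD between replicates, 0.07 on the log2 scale, was above that of only 6.70% of genes. The fitted fold was 1.08 in RNA-seq (log2 0.12 ± 0.06; limma, adjusted p = 0.247) and 1.09 in RPF-seq (adjusted p = 0.323). In RPF-seq its lowest and highest values, 1544 and 2077 RPKM, were the 2 replicates of one timepoint, ZT04, where replicate 2 is the library with many genes at 0. The ratio of Pck1 to Fbp1 had a fold of 2.16 in RNA-seq (permutation test, adjusted p = 0.000107) and 2.10 in RPF-seq (0.000249). The ratio of G6pc to Fbp1 had a fold of 1.73 in RNA-seq (permutation test, adjusted p = 0.000114) and 1.71 in RPF-seq (0.000249). With so small a fitted fold in Fbp1, both ratios largely repeat the courses of Pck1 and G6pc.

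Pcx moved little, and the cosines fitted to its RNA and footprints had different peaks. RNA-seq values lay between 291 RPKM at ZT20 replicate 2 and 377 RPKM at ZT14 replicate 1, with a median of 322. RPF-seq values lay between 393 RPKM at ZT04 replicate 2 and 561 RPKM at ZT16 replicate 2, with a median of 457. The fold was 1.15 in RNA-seq (log2 0.21 ± 0.05; limma, adjusted p = 0.00744) with a peak at 8.91 ± 0.97 h, in the light phase. In RPF-seq it was 1.18 (log2 0.24 ± 0.05; limma, adjusted p = 0.00237) with a peak at 14.9 ± 0.79 h, in the dark phase. Footprints thus peaked 5.97 h after RNA, 4.66 h in replicate 1 and 7.47 h in replicate 2 fitted alone. Across the 24 pools the Pearson r of log2 RNA and RPF values was -0.05 for Pcx and 0.98 for Pck1, a description of points that share their lysates.

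**Figure D2:**
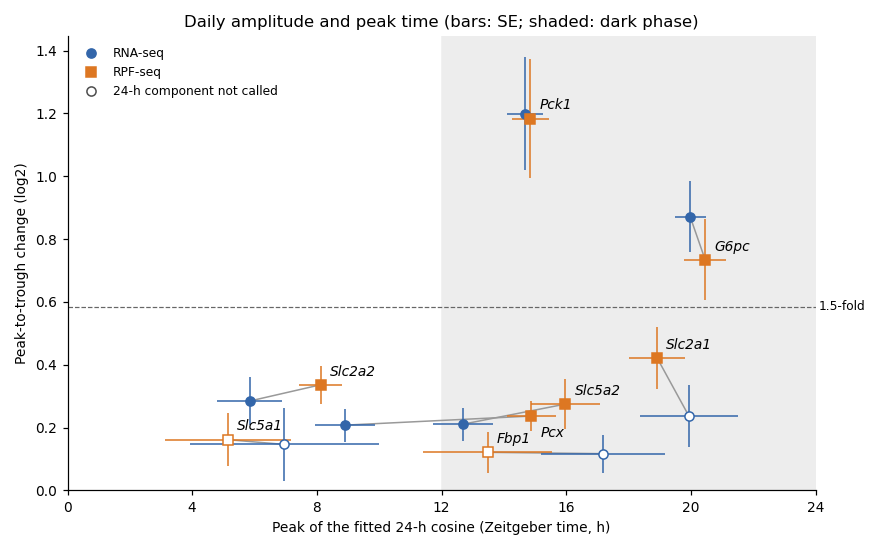
Peak-to-trough change on a log2 scale (vertical) against the peak of the fitted cosine in hours of Zeitgeber time (horizontal) for RNA-seq (blue circles) and RPF-seq (orange squares), with bars of 1 SE and open symbols where no 24-h component was called. Pck1 and G6pc lie above the dashed 1.5-fold line in both assays, and the line joining the symbols of Pcx spans 5.97 h.

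The apical transporters changed by less than the 1.5-fold cutoff. Slc5a2, the bulk carrier of glucose reabsorption, ran from 282 RPKM at ZT00 replicate 2 through 310 to 367 RPKM at ZT16 replicate 2 in RNA-seq, a fold of 1.16 (log2 0.21 ± 0.05; limma, adjusted p = 0.00716) with a peak at 12.7 ± 0.96 h. In RPF-seq it ran from 413 RPKM at ZT06 replicate 1 through 487 to 720 RPKM at ZT16 replicate 2, a fold of 1.21 (log2 0.27 ± 0.08; limma, adjusted p = 0.0304) with a peak at 16 ± 1.1 h. The highest footprint values were those of ZT16, at 720 and 580 RPKM, and of ZT14 replicate 2, at 589 RPKM. This footprint component was not called when both ZT16 pools were left out (fold 1.12, adjusted p = 0.163), nor without ZT02, ZT04, ZT06 or ZT16 replicate 1 or ZT14 or ZT16 replicate 2 alone (adjusted p up to 0.0685). Its footprint peak came 3.29 h after the RNA peak (SE 1.47 h with the assays taken as independent), with 3.50 and 3.08 h in the replicates fitted alone. Neither replicate alone had a component in either assay (limma, adjusted p from 0.0513 to 0.383). The test of a difference between the 2 courses, on the ratio of footprints to RNA (TE), did not pass (limma, adjusted p = 0.123).

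Slc5a1, the high-affinity carrier of the late proximal tubule, ran from 29.7 RPKM at ZT18 replicate 2 through 39.7 to 60.7 RPKM at ZT10 replicate 2 in RNA-seq, and from 69.7 through 80.6 to 107 RPKM in RPF-seq. Neither course passed the test, with folds of 1.11 (limma, adjusted p = 0.536) and 1.12 (adjusted p = 0.305). Its highest pool was far from its partner, as ZT10 replicate 1 had 34.2 RPKM in RNA-seq. That same pool, ZT10 replicate 2, held the lowest values of G6pc and less Pck1 than its partner. The ratio of Slc5a1 to Slc5a2 had a fold of 1.19 in RNA-seq (permutation test, adjusted p = 0.172) and of 1.35 in RPF-seq (adjusted p = 0.00609), highest in both assays at ZT04.

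The footprints of the basolateral transporters peaked in opposite phases of the day. Slc2a2 was highest in the light phase: in RPF-seq the 8 pools of ZT04 to ZT10 held 251 to 290 RPKM, and the other 16 held 192 to 263 RPKM, 3 of them above the lowest of the 8. The fold was 1.22 in RNA-seq (log2 0.28 ± 0.08; limma, adjusted p = 0.0123), with a peak at 5.84 ± 1.0 h and values from 110 RPKM at ZT18 replicate 1 through 128 to 156 RPKM at ZT04 replicate 2. In RPF-seq it was 1.26 (log2 0.34 ± 0.06; limma, adjusted p = 0.000652) with a peak at 8.12 ± 0.69 h. Leaving out any single pool kept the RPF-seq fold between 1.23 and 1.29. In replicate 2 alone neither component of Slc2a2 was called (limma, adjusted p = 0.523 in RNA-seq and 0.172 in RPF-seq). The F test over timepoints did not call the RNA-seq component (limma, adjusted p = 0.112).

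Slc2a1, the widely expressed transporter of the later nephron and of the vessels, was highest in the dark phase at the level of footprints. In RPF-seq the 10 pools of ZT14 to ZT22 held 62.7 to 98.0 RPKM, and the other 14 held 44.8 to 64.4 RPKM, with 2 of them above the lowest of the 10. The fold was 1.34 (log2 0.42 ± 0.10; limma, adjusted p = 0.00645) with a peak at 18.9 ± 0.89 h. This footprint component was not called in replicate 2 alone (limma, adjusted p = 0.205) or by the F test over timepoints (0.0657). In RNA-seq values ran from 21.8 RPKM at ZT12 replicate 2 through 31.9 to 37.9 RPKM at ZT16 replicate 2 and the component was not called, with a fold of 1.18 (log2 0.24 ± 0.10; limma, adjusted p = 0.117); without ZT08 replicate 1 it was (adjusted p = 0.0456). An effect called in one assay and not in the other does not show that they differ, and the test of that difference, on TE, did not pass (adjusted p = 0.188).

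The cosine fitted to a log2 ratio is the difference of the cosines of its 2 genes. The basolateral pair had fitted peaks in opposite phases, so by construction its ratio had a larger fitted fold than either gene in both assays. Slc2a1 stood at 0.17 of Slc2a2 at ZT10 and 0.31 at ZT16 in RNA-seq, a fitted fold of 1.42 (permutation test, adjusted p = 0.0069). This RNA-seq ratio did not pass in either replicate alone (permutation test, adjusted p = 0.0534 in replicate 1 and 0.156 in replicate 2). In RPF-seq the ratio went from 0.17 at ZT10 to 0.33 at ZT20, a fold of 1.68 with a peak at 19.4 h (adjusted p = 5.33e-05). The ratio of the apical Slc5a2 to the basolateral Slc2a2 was lowest at ZT04 and highest at ZT16 in both assays, from 2.04 to 3.19 in RNA-seq and from 1.71 to 2.56 in RPF-seq (permutation test, adjusted p = 0.00356 and 6.4e-05). That of Slc5a1 to Slc2a1 had a fold of 1.30 in RNA-seq (permutation test, adjusted p = 0.162) and 1.49 in RPF-seq (adjusted p = 0.00356). The ratio of Pck1 to Pcx had a fold of 2.31 and 1.93 (permutation test, adjusted p = 5.33e-05 and 0.00123). The 4 markers of the thick ascending limb summed to 3742 to 6409 RPKM in RPF-seq, mostly from Umod, with a fold of 1.38 and a peak at 16.1 h. Of these, 3 had a 24-h component and 0 were rhythmic, beside 30.9% and 7.58% of all genes. RPF-seq sums of the distal convoluted tubule and principal cells peaked at 14.9 and 14.5 h. Those of intercalated cells, endothelium and podocytes peaked at 0.0412, 3.46 and 4.18 h. In the order named, 1 of 3, 5 of 5, 1 of 4, 3 of 4 and 1 of 3 markers had a 24-h component. The part of these cells in the ratios was not tested.

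**Figure D3:**
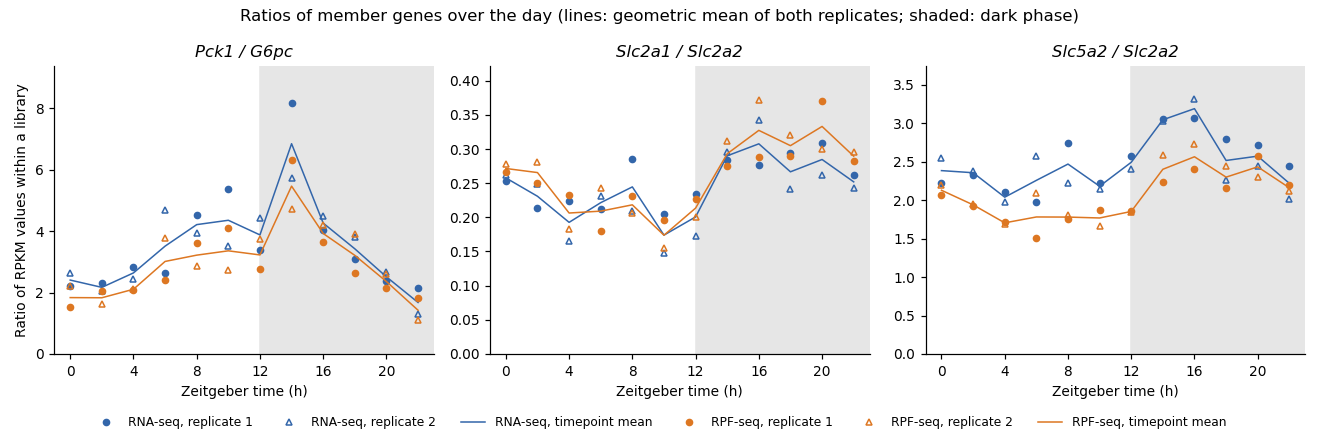
Ratios of RPKM values within a library (vertical axes, each from 0) against Zeitgeber time in hours in RNA-seq (blue) and RPF-seq (orange), with circles and triangles for replicates 1 and 2 and lines through their geometric means. The Pck1 to G6pc ratio reached 6.84 at ZT14 in RNA-seq, and both ratios to Slc2a2 had higher geometric means at ZT14 to ZT20, in the shaded dark phase, than at ZT04 to ZT10.

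Translation efficiency (TE) is the ratio of RPF to RNA RPKM in the same pool and shows how many footprints a given amount of transcript carried. No member had a TE rhythm by limma at the 1.5-fold cutoff, beside 3.74% of all genes, nor did any with an unadjusted p under 0.05 or with AIC model choice. A 24-h TE component was called for 1 of 8 members, beside 17.1% of all genes. An unadjusted p under 0.05 was found for 2 of 8, a threshold at which the share of all genes was not counted. The gene called was Pcx, with TE values from 1.18 at ZT08 replicate 1 through 1.42 to 1.82 at ZT16 replicate 2. The 6 pools of ZT04 to ZT08 held 1.18 to 1.28, and 2 of the other 18 pools fell below the upper end of that range. The fitted fold was 1.24 (log2 0.31 ± 0.07; limma, adjusted p = 0.0144) with a peak at 17.6 ± 0.88 h. It was 1.20 (adjusted p = 0.0475) without the ZT16 pools, a setting chosen after seeing the data. The component was not called with an F test over timepoints (limma, adjusted p = 0.202), at an FDR of 0.01, or in replicate 1 or replicate 2 alone (0.233 and 0.281). With a 12-h harmonic added, the 24-h and 12-h terms were tested together and did not pass (limma, adjusted p = 0.0569). That is no test of the 24-h terms alone, and the 12-h terms by themselves did not pass (limma, adjusted p = 0.944).

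The other TE courses did not pass the test. For Pck1 the TE fold was 1.04 (limma, adjusted p = 0.831) with values from 1.23 to 1.65, and for G6pc it was 1.12 (adjusted p = 0.181) with values from 1.41 to 2.08. Slc5a2 had a fold of 1.16 (limma, adjusted p = 0.123), Slc2a1 of 1.15 (0.188), Slc2a2 of 1.14 (0.203), Fbp1 of 1.08 (0.347) and Slc5a1 of 1.05 (0.813). The 12-h component of TE was called for 0 of 8 members by limma after adjustment, beside 0.0169% of all genes. At an unadjusted p under 0.05 there was 1 member, and the share of all genes at that threshold was not counted. The highest timepoint mean of TE fell at ZT16 in 5 of the 8 members, namely Slc5a2, Slc2a1, Slc2a2, Pck1 and Pcx, and in 14.8% of all genes tested, the largest share of any timepoint. Both ZT16 pools of Slc2a2, at 2.14 and 2.38, were above all 22 others. The median TE over all genes at ZT16 was 0.956 and 0.961 in its 2 pools, inside the range of 0.925 to 0.965 over the 24 pools.

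**Figure D4:**
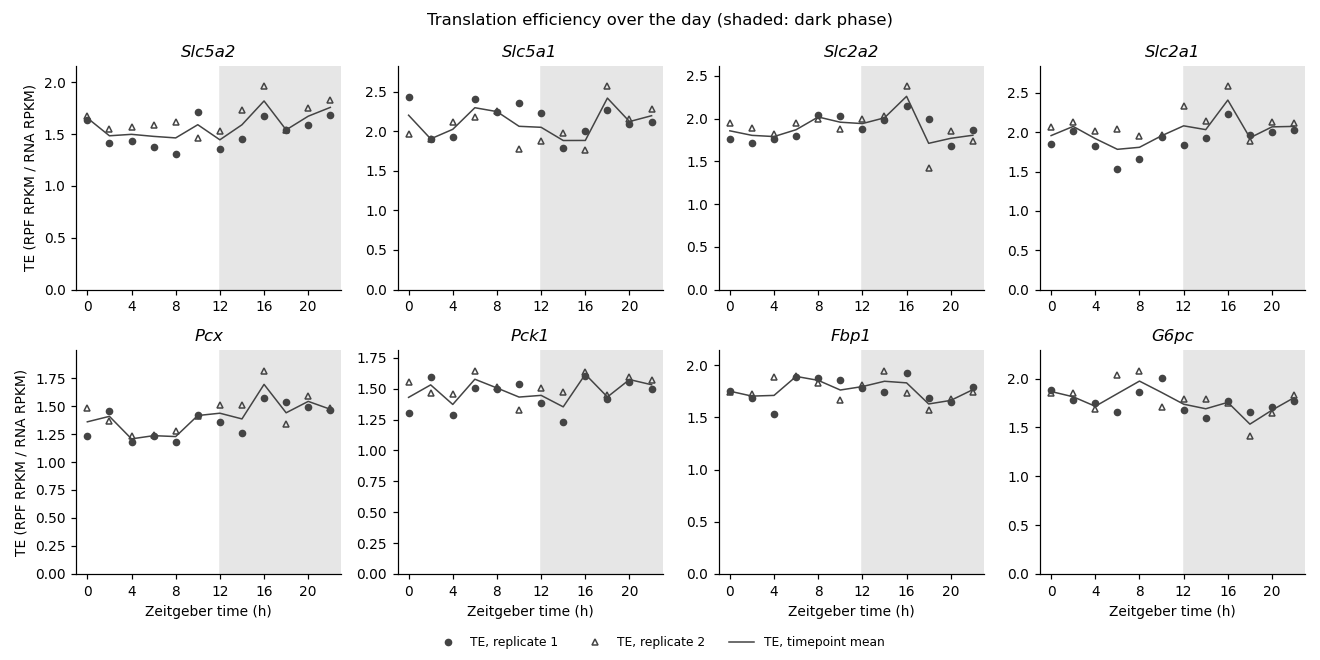
TE (RPF RPKM divided by RNA RPKM of the same pool; vertical axes, each from 0) against Zeitgeber time in hours, with circles and triangles for replicates 1 and 2, lines through timepoint means and shading for the dark phase. Pcx was lowest at ZT04 to ZT08 (1.18 to 1.28) and reached means of 1.69 at ZT16, where 4 of the other genes also had their highest mean.

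The levels of the 8 genes spanned more than an order of magnitude. In RNA-seq the order was Pck1 (1306 ± 500 RPKM, SD, n = 24), Fbp1 (1043 ± 75.1), G6pc (386 ± 94.0), Pcx (331 ± 24.9), Slc5a2 (317 ± 24.3), Slc2a2 (129 ± 15.1), Slc5a1 (39.9 ± 6.34) and Slc2a1 (31.1 ± 3.84). These SDs are taken over all times of day and so include the daily course. In RPF-seq Slc5a2 (502 ± 63.6 RPKM) stood above Pcx (461 ± 36.2), and the order was otherwise that of RNA-seq, from Pck1 (1931 ± 713) and Fbp1 (1839 ± 142) through G6pc (680 ± 156) and Slc2a2 (245 ± 26.1) to Slc5a1 (83.3 ± 9.49) and Slc2a1 (62.5 ± 10.6). Neighbours were compared within libraries by random sign reversal of their log2 ratio (two-sided permutation test, adjusted over 14 pairs). G6pc and Pcx did not differ beyond their spread in RNA-seq (ratio 1.13, adjusted p = 0.0573), nor did Pck1 and Fbp1 in RPF-seq (ratio 0.985, adjusted p = 0.83). In RNA-seq Pck1 exceeded Fbp1 in 15 of 24 libraries (ratio 1.17, permutation test, adjusted p = 0.0425), and Pcx exceeded Slc5a2 in 18 of 24 (ratio 1.04, adjusted p = 0.0335). In replicate 2 alone, neither of these 2 differences passed (permutation test, adjusted p = 0.373 and 0.538), and that of Pck1 and Fbp1 did not pass in replicate 1 alone (0.0710). All other neighbours differed, the weakest being Slc5a2 over Pcx in RPF-seq (ratio 1.08, permutation test, adjusted p = 0.00056; 0.128 in replicate 1 alone).

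**Figure D5:**
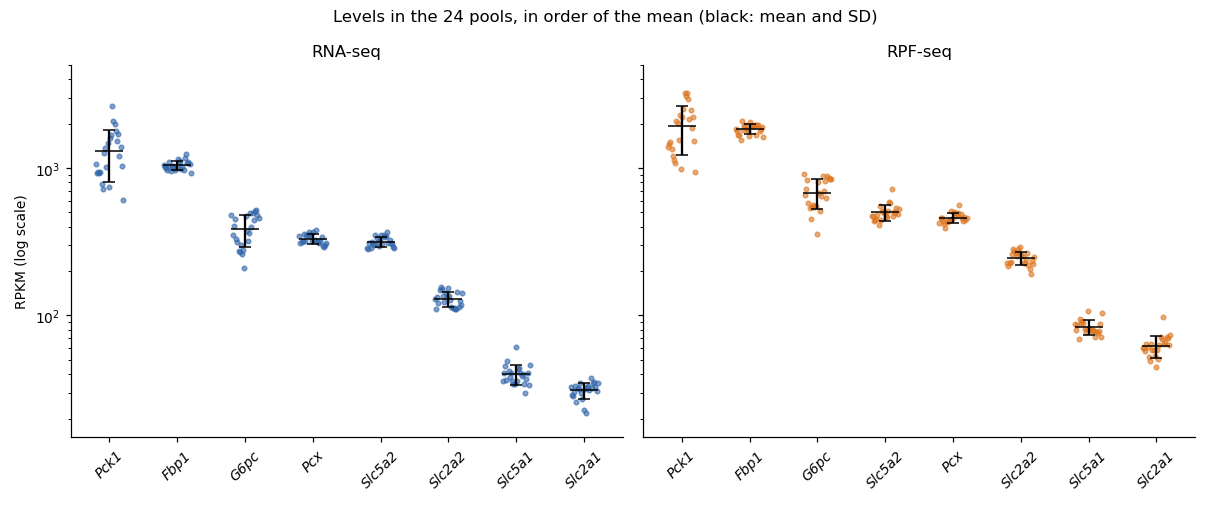
RPKM on a log scale for the 24 pools (points, from left to right ZT00 to ZT22) in RNA-seq (left) and RPF-seq (right), genes in order of their mean, with the mean and SD in black. Pck1 spread from 602 to 2629 RPKM in RNA-seq around a mean close to that of Fbp1, and Slc5a1 and Slc2a1 were the lowest in both assays.

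All 8 genes carried more footprints per transcript than most genes. Their geometric mean TE was 2.09 for Slc5a1, 1.99 for Slc2a1, 1.89 for Slc2a2, 1.77 for G6pc, 1.76 for Fbp1, 1.58 for Slc5a2, 1.48 for Pck1 and 1.39 for Pcx, with a median of 0.956 over all genes tested. The highest, Slc5a1, was above 96.4% of genes and the lowest, Pcx, above 78.2%. TE varied little between pools, with SDs of log2 TE from 0.09 (Fbp1) to 0.16 (Pcx) over the 24 pools. Slc5a1 had an RNA level 0.122 times that of Slc5a2 in the median library and a footprint level 0.164 times.

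Among the other glucose and hexose transporters, 2 of 13 tested genes were rhythmic in RNA-seq and 3 in RPF-seq, and 10 and 8 had a 24-h component, with a median RNA-seq fold of 1.30. For this list and the next 4, the shares over all genes tested were 10.2% rhythmic and 48.6% with a component for RNA, and 7.58% and 30.9% for footprints. Slc2a9, a urate transporter, had an RNA-seq fold of 1.67 and a peak at 12.2 h (limma, adjusted p = 3.63e-05). Slc2a5, a fructose transporter, had a fold of 1.59 and a peak at 11.2 h (adjusted p = 2.25e-06). Both peaks lay around lights-off, later than the RNA-seq peak of Slc2a2. Slc5a3, which carries myo-inositol with sodium, was rhythmic in RPF-seq (fold 1.59, peak 16.1 h; limma, adjusted p = 0.000253), and its RNA-seq fold was 1.30.

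Of the scaffolds, kinases and sodium transporters that accompany the sodium-glucose cotransporters, 1 of 9 tested was rhythmic in each assay, and 5 and 6 had a 24-h component, beside 48.6% and 30.9% of all genes. The median RNA-seq fold was 1.14. The rhythmic gene was Sgk1, a kinase induced by corticosteroids that acts on several membrane transporters. Its fold was 2.64 in RNA-seq, with a peak at 15.98 h (limma, adjusted p = 2.95e-07), and 2.43 in RPF-seq, with a peak at 15.7 h (adjusted p = 3.45e-06). Its peaks fell about 1 h after those of Pck1.

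The remaining enzymes and carriers of gluconeogenesis were mostly below the cutoff. Of 29 tested, 1 was rhythmic in each assay, beside 10.2% and 7.58% of all genes, and 11 in RNA-seq and 10 in RPF-seq had a 24-h component, beside 48.6% and 30.9%. Their median fold was 1.11 in RNA-seq and 1.15 in RPF-seq, beside 1.20 and 1.18 over all genes. The rhythmic gene was Slc16a1, a carrier of lactate and other monocarboxylates, with a fold of 4.24 and a peak at 22.8 h in RNA-seq (limma, adjusted p = 2.18e-12) and of 4.03 and 22.9 h in RPF-seq (adjusted p = 3.37e-12).

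Among enzymes of glycolysis and pyruvate oxidation, 3 of 19 tested were rhythmic in RNA-seq and 2 in RPF-seq, beside 10.2% and 7.58% of all genes. A 24-h component was called for 9 and 5, beside 48.6% and 30.9%, and the median RNA-seq fold was 1.17. All 3 peaked in the light phase in RNA-seq. Pfkfb1 and Pfkfb3, which set the level of fructose-2,6-bisphosphate and through it oppose or favour Fbp1, had RNA-seq folds of 1.79 and 1.71 with peaks at 7.51 and 9.28 h (limma, adjusted p = 0.00294 and 3.24e-06). Pdk2, which switches off pyruvate dehydrogenase, had a fold of 1.53 and a peak at 8.96 h (adjusted p = 0.00262), close in time to the RNA peak of Pcx, the other enzyme that consumes mitochondrial pyruvate.

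Of the regulators of gluconeogenic genes, 9 of 28 tested were rhythmic in RNA-seq and 8 in RPF-seq, beside 10.2% and 7.58% of all genes. A 24-h component was called for 19 and 15, beside 48.6% and 30.9%, and the median RNA-seq fold was 1.34. The list includes clock genes. The largest folds were those of Dbp, a D-box activator (42.1, peak 10.5 h; limma, adjusted p = 6.83e-14), Nr1d1, the repressor REV-ERBα (21.7, peak 7.52 h; adjusted p = 7.92e-12), and Cry1, a clock repressor (7.04, peak 18.5 h; adjusted p = 1.6e-10). Ppard, a nuclear receptor for fatty acids, followed with 6.58 and a peak at 0.720 h (limma, adjusted p = 7.65e-12), and Irs2, an adaptor of the insulin receptor, with 2.21 and a peak at 7.31 h (adjusted p = 0.00831). In RPF-seq Irs2 did not pass (fold 1.95, limma, adjusted p = 0.0757). Ppard was the only gene of the 5 lists with a TE rhythm, a fold of 1.79 with a peak at 20.3 h (limma, adjusted p = 0.00736).

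The genes whose RNA-seq course was most like that of Pck1 over the 24 libraries were Tfcp2l1 (Pearson r of log2 values 0.894), Slc25a25 (0.884) and Rtkn (0.867). For G6pc they were Tfec (0.858), Usp15 (0.845) and Dbt (0.838), and for Slc5a2 Fam117a (0.799), Tmem119 (0.796) and again Rtkn (0.781). For Slc5a1 they were Hadha (0.824), Iqgap2 (0.781) and Rpl27a (0.772). These are the highest of the correlations with all other genes tested, over libraries that share time of day and depth. Among the members themselves, Pck1 had an r of 0.63 with Slc5a2, 0.22 with G6pc and -0.60 with Slc2a2 in RNA-seq, and G6pc had an r of -0.49 with Slc2a2. In RPF-seq the highest r between members was 0.74, between Slc5a2 and Slc2a1, which had been 0.24 in RNA-seq.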

How the data were processed

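RNA-seq and RPF-seq libraries of 24 kidney pools were analysed. The authors trimmed reads with cutadapt, filtered them by size, mapped them with Bowtie 2.2.1 and TopHat 2.0.11 (GRCm38.p2, Ensembl 75), counted those on coding sequences and scaled libraries by upper quantiles with edgeR. The deposited values are RPKM, so no count model was fitted, and a change in total mRNA cannot be seen. Total reads per library were not in the tables; relative depth came from the steps between low RPKM values, and member values were whole reads within 0.001.

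Genes with a median of at least 0.5 RPKM in both assays were tested across all genes with limma 3.58.1 (R 4.3.3) as a moderated F test of 24-h cosine and sine on log2(RPKM + 0.1), a scale that understates changes of low genes, with Benjamini-Hochberg adjustment. TE was tested on the log2 ratio within a pool, since both libraries came from 1 lysate (replicate differences of the 2 assays correlated across genes at every timepoint, median r = 0.247). Ratios and levels were tested by permutation with 100000 resamples (numpy 2.4.6). The fits were tested on simulated data. Samples were grouped by assay and timepoint from their titles. Of 12423 identifiers, 12373 had a symbol.

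The 8 members and all lists were chosen with earlier results of these data known. Blocks of timepoints set against the other pools were chosen after the values were seen. Named were the members, of each list the rhythmic genes (at most 5, by RNA-seq fold), and for Pck1, G6pc, Slc5a2 and Slc5a1 the 3 most correlated genes; other genes were named after their values were seen. Alternatives were no fold cutoff, an FDR of 0.01, pseudocounts of 0.01 and 1, no minimum level or one of 2 RPKM, an added 12-h harmonic, an F test over timepoints, AIC choice, quantile normalisation, a replicate block, unpaired TE, and leaving out each replicate, each pool and, added later, ZT16.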

Additional observations from a re-analysis of the deposited data

Results flagged for a closer look

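The daily courses of Pcx in RNA-seq and RPF-seq differed from each other, by the test of their difference over the 24 pools (24-h component of TE, limma, Benjamini-Hochberg adjusted p = 0.0144). The fold of the TE course was 1.24, and the replicates fitted alone gave 1.23 and 1.26 with peaks at 18.2 and 17.2 h. It was called with each single pool left out (adjusted p from 0.00649 to 0.0311) and with the assays unpaired (0.00999). It was not called at an FDR of 0.01, with the F test over timepoints (limma, adjusted p = 0.202), or in replicate 1 or replicate 2 alone (0.233 and 0.281). The joint test of 24-h and 12-h terms did not pass either (limma, adjusted p = 0.0569). A 24-h TE component was called for 1 of 8 members, beside 17.1% of all genes.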

How the results depend on the processing

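Without the fold cutoff, the calls were 5 members in RNA-seq, 6 for footprints and 1 for TE. The F test over 12 timepoints, which fits no curve, left 2, 3 and 0 members with a component in RNA-seq, RPF-seq and TE. The TE component was also lost at an FDR of 0.01 (0 members). With a 12-h harmonic, tested together with the 24-h terms, 0 members passed for TE. Quantile normalisation gave 2 TE components, adding Slc5a2 (limma, adjusted p = 0.0477) while its RPF-seq component was lost (0.128). With 1 replicate left out, so with 12 libraries, 1 to 2 members were rhythmic in RNA-seq and 0 to 2 in RPF-seq, 1 to 4 and 0 to 4 had a component, and 0 had one in TE; 0 to 13 of 16 ratios passed, against 14 in all libraries. The lower values came without replicate 1, where Pck1 had folds of 2.2 (limma, adjusted p = 0.0517) and 2.17 (0.132) and G6pc an RPF-seq fold of 1.64 (0.0904). The share of all genes with a component was not counted for the F test, FDR of 0.01, harmonic, quantile or single-replicate settings. Over all genes, the 1210 RNA-seq, 899 RPF-seq and 444 TE rhythms became 5761, 3663 and 2028 without the fold cutoff, and 722, 370 and 0 without replicate 1. TE rhythms numbered 2 without replicate 2, 215 at an FDR of 0.01 and 727 by AIC. A pseudocount of 1 left 781 and 590 in RNA-seq and RPF-seq, and the F test over timepoints gave 2291 in RNA-seq and 98 in TE. For that F test the 1.5-fold cutoff was applied to the highest over the lowest timepoint mean, not to a cosine, so these counts are not directly comparable.

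Replicate numbers were not treated as pairing the samples. Differences between replicates correlated above 0.1 in 13 of 66 pairs of timepoints in RNA-seq and 10 of 66 in RPF-seq. The mean r was 0.03 and 0.02, and the highest was 0.48 and 0.19. Whether a replicate number marks a collection cycle cannot be told from the titles. A fit with the replicate block gave 2, 2 and 0 rhythmic members and 5, 6 and 1 with a component, and 14 ratios.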
